A study of Mus musculus with 45 samples.

Results

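The genes described here are induced by interferons, the cytokines that put cells into an antiviral state. They are the rows of the count table whose symbol is on a list of 39 interferon-induced genes. The rule matches symbols, but the list was chosen with earlier results of these data known. Of the 39, 37 had a row among the 27007 genes of the table, and all 37 had enough counts to be among the 15444 genes tested. Mx1 and Mx2 were not analysed here. The members comprise 4 transcription factors, 7 genes of the ISG15 pathway and of ubiquitin or ADP-ribose transfer, 8 sensors of foreign nucleic acid, 9 antiviral effectors, 5 GTPases and 4 other induced proteins. They were measured by RNA-seq of left ventricle, the main pumping chamber of the heart, from wild-type mice. Within a day of birth the mice were sham-operated, had the aorta constricted (nAAC), which loads the ventricle with pressure, or had it constricted reversibly (Rev-nAAC). Sampling followed at the age of 4, 6 or 8 weeks, which gives 9 groups of 5 libraries, 45 in all. The labels give no strain, no sex and no date at which a reversible constriction was released. They do not say that the 5 libraries of a group came from separate mice, so p-values measure the spread between libraries, which may be technical in part.

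Type I interferons bind a receptor on nearly every cell and act through JAK kinases on STAT2, which works with IRF9 in the complex ISGF3. ISGF3 binds the interferon-stimulated response element (ISRE) in the promoters of its target genes. Interferon gamma, made mainly by T cells and NK cells, acts through another promoter element, the gamma-activated site (GAS). Many interferon-induced genes respond to both pathways.

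The promoters of the members were read to show which of these elements their letters hold. RefSeq promoters of GRCm38.p6 were matched by symbol for 29 of the 39 members, and the 250 bases before the transcript start were searched on both strands. The core letters of the ISRE, GAAANNGAAA, were found in 13 of these 29 genes (44.8%), against 936 of all 27025 genes with a promoter (3.46%). The letters of the GAS, TTCNNNGAA, were found in 6 of the 29 (20.7%), against 8.13% of all genes. Matches of the ISRE letters can overlap each other, and are counted once per gene. Members whose searched promoter held neither match include Irf7, Irf9, Ifih1, Oasl2, Cmpk2, Ifi44 and Xaf1. Usp18 and Zbp1 are among those with no promoter to search. Below are the stretches around 1 match in 7 members, picked among those with a match. Each is given 5′ to 3′ on the strand of the gene, with the match in capitals (ISRE, or GAS for Irf1). In Ifit1, Ifit3, Ifit3b and Rsad2 the match lies on the other strand, so its letters read reversed and complemented.
Isg15: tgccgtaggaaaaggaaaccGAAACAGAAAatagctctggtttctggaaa
Ifit1: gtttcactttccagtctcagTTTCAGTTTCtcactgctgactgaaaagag
Ifit3: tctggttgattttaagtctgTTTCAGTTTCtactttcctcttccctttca
Ifit3b: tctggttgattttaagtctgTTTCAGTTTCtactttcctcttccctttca
Rsad2: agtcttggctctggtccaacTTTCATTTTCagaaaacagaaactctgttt
Igtp: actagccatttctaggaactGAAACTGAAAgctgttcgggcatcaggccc
Irf1: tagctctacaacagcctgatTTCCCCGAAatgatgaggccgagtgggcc
These stretches lie at chr4:156200855-156200904 on the minus strand, chr19:34640784-34640833, chr19:34583387-34583436 and chr19:34607783-34607832 on the plus strand, chr12:26456543-26456592 on the minus strand, and chr11:58199502-58199551 and chr11:53769904-53769952 on the plus strand. The capitals of Isg15 span positions -66 to -57 from the transcript start, and further matches at -78 to -69 and -72 to -63 overlap in a chain with them. In Ifit1 the printed match spans -85 to -76, and another lies at -104 to -95. The stretches of Ifit3 and Ifit3b, neighbouring copies on chromosome 19, are alike at all 50 printed bases. Their aligned promoters match at 188 of 218 bases (86.2%), and since reads of such copies can be split by the counting, their separate values are uncertain. The promoter of Igtp holds a GAS match too, at -45 to -37, beside its ISRE match at -34 to -25. A match is a description of letters and not a measured binding site.

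**Figure D1:**
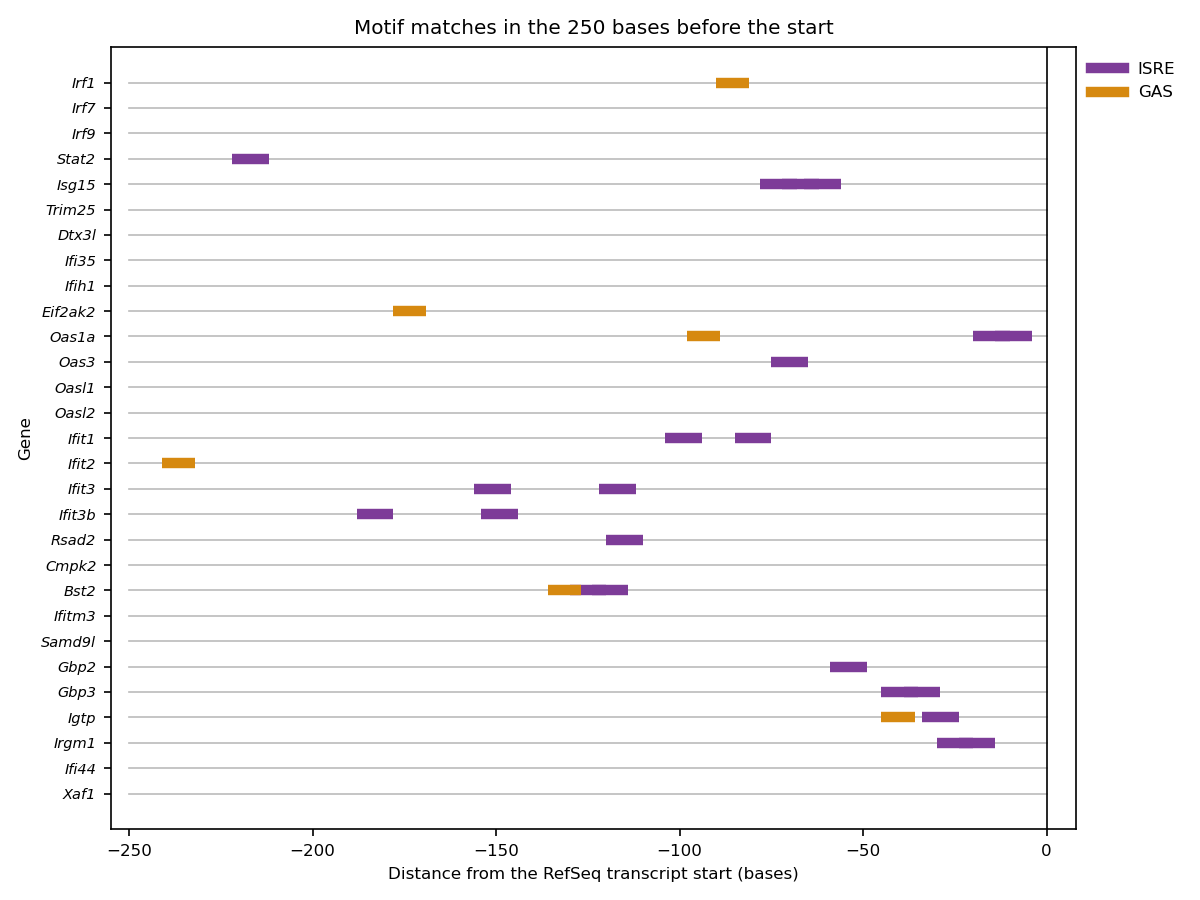
Matches of ISRE letters (purple) and GAS letters (orange) in the promoters of the members with a RefSeq promoter, by distance from the transcript start in bases. Irf1, Eif2ak2 and Ifit2 carry a GAS match and no ISRE match, and Bst2, Oas1a and Igtp carry both.

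Library totals ran from 31586082 to 35965976 counts, and no member was at 0 in any library. The lowest member count was 1, for Oas3, and the median over members and libraries was 671. Levels are given as CPM, counts scaled to a common library total after TMM normalization, and a member or gene is called where edgeR's adjusted p is under 0.05. Xist and Y-linked genes show that all 15 sham libraries were male, while 3, 4 and 2 of the nAAC libraries and 2, 2 and 4 of the Rev-nAAC libraries at 4, 6 and 8 weeks were female. Sex is thus mixed with operation in every comparison against sham, and values with sex as a term are given where they differ. The library nAAC 4-week replicate 1 is nAAC by its title and sham by its treatment tag, and was grouped by title. It was doubted together with nAAC 4-week replicate 5, Rev-nAAC 4-week replicate 2, with a red cell marker sum of 10284 CPM, and Rev-nAAC 8-week replicate 4, with an adipocyte marker sum of 157 CPM, a choice made from earlier results of these data.

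Some libraries stood apart in the members themselves. In nAAC 4-week replicate 5, 24 of the 37 members had their highest value of the group, such as Isg15 at 22.5 CPM against 5.81 to 6.95 CPM in the other 4 libraries. In nAAC 8-week replicate 4, 34 members were at their group's highest, and in Rev-nAAC 6-week replicate 1, 32 were. In sham 8-week replicate 3 it was 35. Rev-nAAC 4-week replicate 4 stood out in the GTPases, with Iigp1 at 138 CPM against 37.4 to 57.3 CPM. Of these libraries 4, nAAC 4-week replicate 5, nAAC 8-week replicate 4, Rev-nAAC 4-week replicate 4 and Rev-nAAC 6-week replicate 1, were left out together in an alternative that was chosen after the members' own values had been seen.

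Levels differed widely between members. Per kilobase of exon, the highest in nAAC hearts at 6 weeks were Ifitm3, which blocks entry of enveloped viruses, at 196 CPM per kb, Ifi27l2a at 128, and Bst2 (tetherin), which holds budding virus at the cell surface, at 43.8. The same 3 genes led in sham hearts at 6 weeks, at 113, 38.5 and 28.7 CPM per kb. Oas3 was lowest, at 0.194 CPM per kb in nAAC hearts at 6 weeks.

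Between 4 and 6 weeks of age the interferon response genes fell in sham hearts. Of the 37, 28 were lower at 6 than at 4 weeks and none was higher, where 9.58% of all genes tested were lower and 16.9% changed in either direction. The median log2 change was -0.82 over the members and -0.01 over all genes. In 30 members the groups did not overlap, with every 6-week library below every 4-week library, against 12.1% of all genes. All libraries of this comparison were male. The fall covered 7 of 7 genes of the ISG15 group, 7 of 8 sensors, 8 of 9 effectors, 4 of 4 other induced proteins, 2 of 4 transcription factors and 0 of 5 GTPases.

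Irf7, the factor that amplifies type I interferon production, was at 34.6, 26.2, 26.7, 31.8 and 24.9 CPM in the sham libraries at 4 weeks and at 13.7, 21, 14.1, 18.8 and 14.2 CPM at 6 weeks. Every 4-week value was above every 6-week value, and the log2 change was -0.82 ± 0.28 (SE; edgeR adjusted p = 0.038). Isg15, a ubiquitin-like protein that is joined to other proteins, was at 17.7, 9.74, 11.7, 12.6 and 10.7 CPM at 4 weeks and 3.56, 4.79, 4.73, 5.35 and 4.45 CPM at 6 weeks. The groups were again apart, by -1.45 ± 0.33 (adjusted p = 0.0019) on the log2 scale. Usp18, which removes ISG15 and dampens signalling at the type I receptor, was at 10.7, 7.05, 8.44, 9.43 and 6.1 CPM and then 3.44, 4.07, 3.39, 4.19 and 2.73 CPM, a change of -1.23 ± 0.24 (adjusted p = 0.00038). No Usp18 value at 6 weeks reached any value at 4 weeks.

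Other large falls were those of Oas3, with a log2 change of -2.26 ± 0.62, Ifi44, with -1.68 ± 0.29, and Ifi27l2a, with -1.31 ± 0.33. Oas3 rests on few counts. Rsad2 (viperin), which makes a chain-terminating nucleotide, was at 45.7, 41.5, 42.9, 43.6 and 39.5 CPM at 4 weeks and 16.8, 23.7, 18.4, 19.4 and 16.3 CPM at 6 weeks, and fell by the same test, with a log2 change of -1.17 ± 0.24 (adjusted p = 0.00068). Its neighbour Cmpk2, a mitochondrial nucleotide kinase, changed by -1.12 ± 0.20 (adjusted p = 6.9e-05). The 9 members without a call were Irf1, Irf9, Zbp1, Ifitm3 and the 5 GTPases, and Irf1 had a value of 0.05 ± 0.13 (adjusted p = 0.82). From 6 to 8 weeks no member was called in sham hearts by edgeR or DESeq2, 5 had an unadjusted p under 0.05, limma voom called 5, and 1.83% of all genes were called. The median of the members was -0.11 in that step, and 2 members were called without sham 8-week replicate 3.

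Some cell type markers were also lower at this step, in which 9.58% of all genes were lower and 7.32% higher. Of 14 macrophage markers 8 were lower in sham hearts at 6 than at 4 weeks and 0 higher, and their summed level was 488 to 691 CPM at 4 weeks, 304 to 402 CPM at 6 weeks and 440 to 608 CPM at 8 weeks, with no marker at 0. Of 10 endothelial markers 5 were lower at 6 weeks, with a summed level of 1630 to 1845 CPM at 4 weeks and 1330 to 1402 CPM at 6 weeks. Of 9 fibroblast markers 3 were lower and none higher, with a sum of 2745 to 3498 CPM at 4 weeks and 2120 to 2819 CPM at 6 weeks. Among 10 T and NK cell markers tested 1 was lower, near the share of all genes. The sum of the list was 2.7 to 4.23 CPM and then 1.07 to 2.61 CPM. Cd79b was the 1 lower B cell marker, again near that share, with list sums of 2.82 to 5.43 CPM and then 1.64 to 2.59 CPM. Of 4 plasmacytoid dendritic cell markers tested 1 was higher (Pacsin1) and 1 lower (Tcf4), with sums of 157 to 168 CPM and then 120 to 142 CPM. None of 10 cardiomyocyte markers was called, and their sum was 52228 to 60536 CPM at 4 weeks and 65152 to 67475 CPM at 6 weeks. In whole tissue, fewer cells of a type and less RNA per cell cannot be told apart. The part of these markers in the fall was not tested. With each library left out in turn, 23 to 28 members were called.

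**Figure D2:**
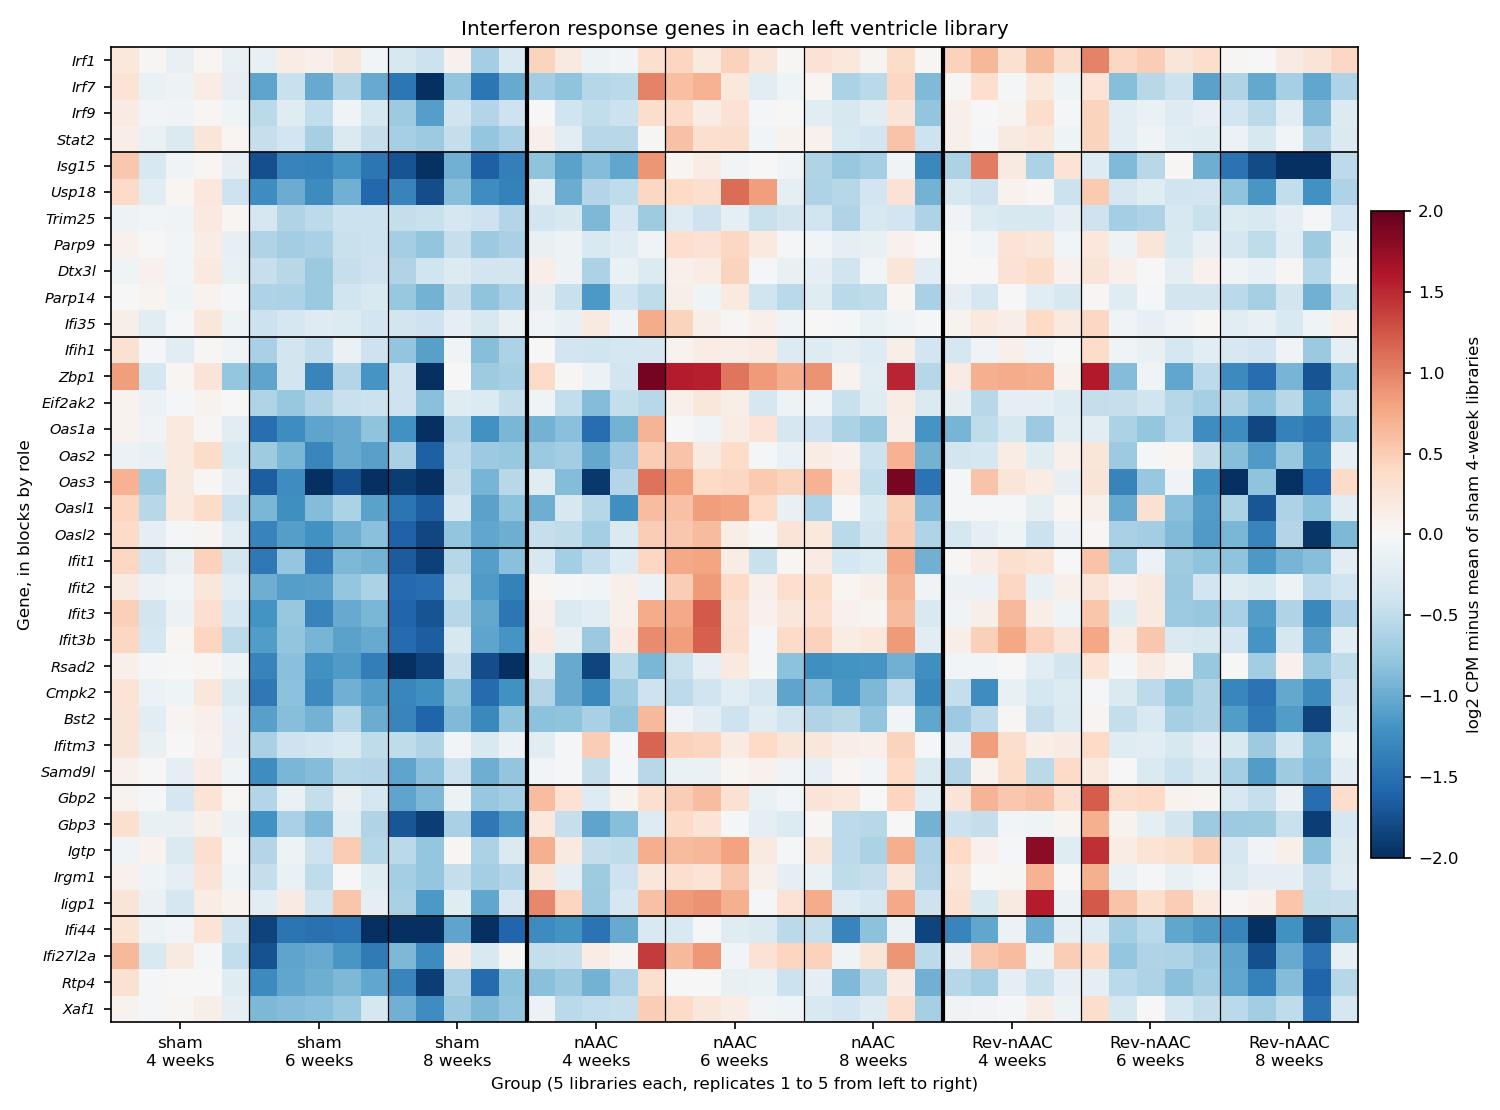
Level of each of the 37 genes (rows, in blocks by role) in each of the 45 libraries (columns), as log2 CPM minus the mean of the sham 4-week libraries, from blue (lower) to red (higher). The sham columns turn blue from 4 to 6 weeks in most rows outside the GTPases, the nAAC columns at 6 weeks are mostly near white or red, and single libraries such as nAAC 4-week replicate 5 and Rev-nAAC 6-week replicate 1 stand out within their groups.

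At 6 weeks the constricted hearts carried more of nearly all of these transcripts than sham hearts. Of the 37 members 33 were higher in nAAC and none was lower, where 24.5% of all genes were higher and 48.3% changed in either direction. The median log2 difference was 0.81 over the members and 0.02 over all genes, and all 37 values were above 0. In 27 members every nAAC library lay above every sham library, against 18.3% of all genes. The 4 members without a call were Irf1, Trim25, Igtp and Iigp1. These are differences between operations at 1 age and not changes over time. Relative to the sham 4-week mean, the median log2 level of the members averaged -0.77 in sham at 6 weeks. In nAAC it averaged -0.23 at 4 weeks and 0.15 at 6 weeks.

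Among the transcription factors, 3 of 4 were higher in nAAC than in sham. Irf7 was at 43.6, 46.1, 32.9, 24.6 and 27.1 CPM in the nAAC libraries, all above the sham values of 13.7 to 21 CPM, with a log2 difference of 1.09 ± 0.28 (SE; edgeR adjusted p = 0.0013). Stat2 was at 41.8, 35.1, 35.7, 26.8 and 29.4 CPM in nAAC and 20.4, 21.4, 17.6, 22.8 and 20.1 CPM in sham, again without overlap, with a difference of 0.72 ± 0.15 (adjusted p = 0.00015). Irf9, its partner in ISGF3, was at 38.3, 32.5, 35.8, 29 and 29.3 CPM in nAAC and 20.1, 24.8, 20.9, 27.5 and 23 CPM in sham, a difference of 0.50 ± 0.16 (adjusted p = 0.0081) with no shared values, and its gene shares 123 bases with Rnf31 on the same strand. Irf1, which interferon gamma induces through its GAS, was at 37.3, 31.5, 38.1, 32.8 and 28.2 CPM in nAAC and 24.9, 30.5, 29.7, 32.4 and 26.7 CPM in sham. These groups overlapped, and the difference of 0.22 ± 0.13 (adjusted p = 0.15) did not pass the test.

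In the ISG15 group 6 of 7 were higher in nAAC. Isg15 was at 12.5, 13.6, 11.8, 12.2 and 11.6 CPM in nAAC, against 3.56 to 5.35 CPM in sham, a log2 difference of 1.43 ± 0.33 (SE; edgeR adjusted p = 0.00045). The nAAC values lay close together and all above sham. Usp18 was at 10.8, 10.3, 17.8, 14.7 and 7.16 CPM in nAAC, against 2.73 to 4.19 CPM in sham, a 3.4-fold level, or log2 1.77 ± 0.25 (adjusted p = 1.6e-07). The lowest of them exceeded the highest sham value. Parp9 and Dtx3l, partners in a complex that ADP-ribosylates ubiquitin, differed by 0.81 ± 0.10 and 0.64 ± 0.12, and their genes overlap by 367 bases on opposite strands, so with no strand setting stated some reads may be assigned to the wrong one. Parp14 and Ifi35 differed by 0.42 ± 0.14 and 0.47 ± 0.12. Trim25, a ubiquitin ligase that acts on the RNA sensor RIG-I, was at 51.4, 45.9, 54.1, 44.8 and 47.5 CPM in nAAC and 48.6, 40.5, 42.5, 45.4 and 45.6 CPM in sham. It had the smallest difference of the members, 0.13 ± 0.09 (adjusted p = 0.24), with overlapping groups.

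All 8 nucleic acid sensors were higher in nAAC than in sham, with a median log2 difference of 1.32. Ifih1 (MDA5), which detects long double-stranded RNA, was at 19.5, 20.7, 20.4, 21 and 15.4 CPM in nAAC and 11.9, 14.4, 13.4, 17 and 13.9 CPM in sham, a difference of 0.46 ± 0.14 (SE; edgeR adjusted p = 0.0074). Replicate 5 of nAAC and replicate 4 of sham overlapped. Zbp1, which binds Z-form nucleic acid and can trigger cell death, was at 7.25, 7.18, 5.13, 4.39 and 4.03 CPM in nAAC and 1.14, 1.86, 0.926, 1.58 and 1.04 CPM in sham, a difference of 2.10 ± 0.47 (adjusted p = 0.00029). The groups did not overlap. Eif2ak2 (PKR), which halts translation on double-stranded RNA, was at 31.3, 34.2, 31.8, 23.3 and 27.4 CPM in nAAC and 19.3, 17.3, 19.2, 21.5 and 21.8 CPM in sham, a difference of 0.58 ± 0.12 (adjusted p = 0.00014), again without overlap.

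Active oligoadenylate synthetases make the second messenger that switches on RNase L. The genes of this family measured here, which include the synthetase-like Oasl1 and Oasl2, lie on chromosome 5. Oas1a was at 8.11, 7.79, 9.03, 9.92 and 6.43 CPM in nAAC and 2.84, 3.42, 3.91, 4.05 and 4.66 CPM in sham, a difference of 1.13 ± 0.28 (adjusted p = 0.0011). All nAAC values were higher, although Oas1a has close copies between which reads may be split. Oasl2 was at 33.4, 35.8, 25.2, 23.4 and 27.5 CPM in nAAC and 9.08, 10.6, 9.87, 11.6 and 12.9 CPM in sham, a difference of 1.43 ± 0.24 (adjusted p = 4.4e-06). Oas2, Oas3 and Oasl1 were higher by 1.21 ± 0.26, 2.75 ± 0.61 and 1.50 ± 0.32, and the difference of Oas3, the largest among the members, rests on a gene with 1 to 7 counts in each sham library at 6 weeks.

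All 9 effectors were higher in nAAC than in sham. Ifit1, which binds viral RNA that lacks the host's cap methylation, was at 22.8, 23.1, 14.9, 9.8 and 13.8 CPM in nAAC and 4.95, 7.82, 5.11, 7.15 and 6.9 CPM in sham, a log2 difference of 1.40 ± 0.29 (SE; edgeR adjusted p = 0.00011). Ifit3 was at 35.4, 49.4, 26, 22.2 and 24.7 CPM in nAAC and 9.11, 12.4, 8.26, 10.5 and 11.1 CPM in sham, a 3.07-fold level, or log2 1.62 ± 0.26 (adjusted p = 2.1e-06). In both genes each nAAC library exceeded each sham library, and Ifit2 and Ifit3b were higher by 1.36 ± 0.18 and 1.60 ± 0.28. Rsad2 was at 31.1, 37.9, 48.7, 42 and 24.1 CPM in nAAC, against 16.3 to 23.7 CPM in sham, a difference of 0.96 ± 0.24 (adjusted p = 0.0012) in which the lowest nAAC value was just above the highest sham value. Ifitm3 was at 145, 140, 118, 138 and 124 CPM in nAAC and 66.7, 78.4, 80.1, 84.3 and 73.9 CPM in sham, a difference of 0.79 ± 0.19 (adjusted p = 0.00049). Bst2 was at 39.7, 35.8, 31.3, 35.1 and 31.5 CPM in nAAC and 19.7, 23.2, 21.7, 28 and 20.9 CPM in sham, a difference of 0.61 ± 0.23 (adjusted p = 0.029). Neither of these abundant transcripts overlapped between the groups, and Cmpk2 and Samd9l were higher by 0.63 ± 0.20 and 0.77 ± 0.17.

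The 4 other induced proteins were higher in nAAC as well. Ifi27l2a, a small mitochondrial or nuclear membrane protein, was at 67, 78.1, 41.1, 51.9 and 57.6 CPM in nAAC and 12.7, 20.5, 21.1, 18.9 and 15.9 CPM in sham, a 3.32-fold level, or log2 1.73 ± 0.34 (adjusted p = 5.2e-05). Xaf1, which favours apoptosis by binding XIAP, was at 24.4, 21.8, 20.8, 18 and 17.7 CPM in nAAC and 10, 10.3, 10.4, 11.2 and 14.6 CPM in sham, a difference of 0.87 ± 0.18 (adjusted p = 0.00013). Neither overlapped between groups. Ifi44 and Rtp4 were higher by 1.38 ± 0.29 and 0.91 ± 0.22, and the gene of Rtp4 shares 296 bases with a predicted gene on the same strand. With sex as a term, 28 members were called at this age. Male libraries alone leave 1 nAAC library here, too few to check the result within a sex.

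**Figure D3:**
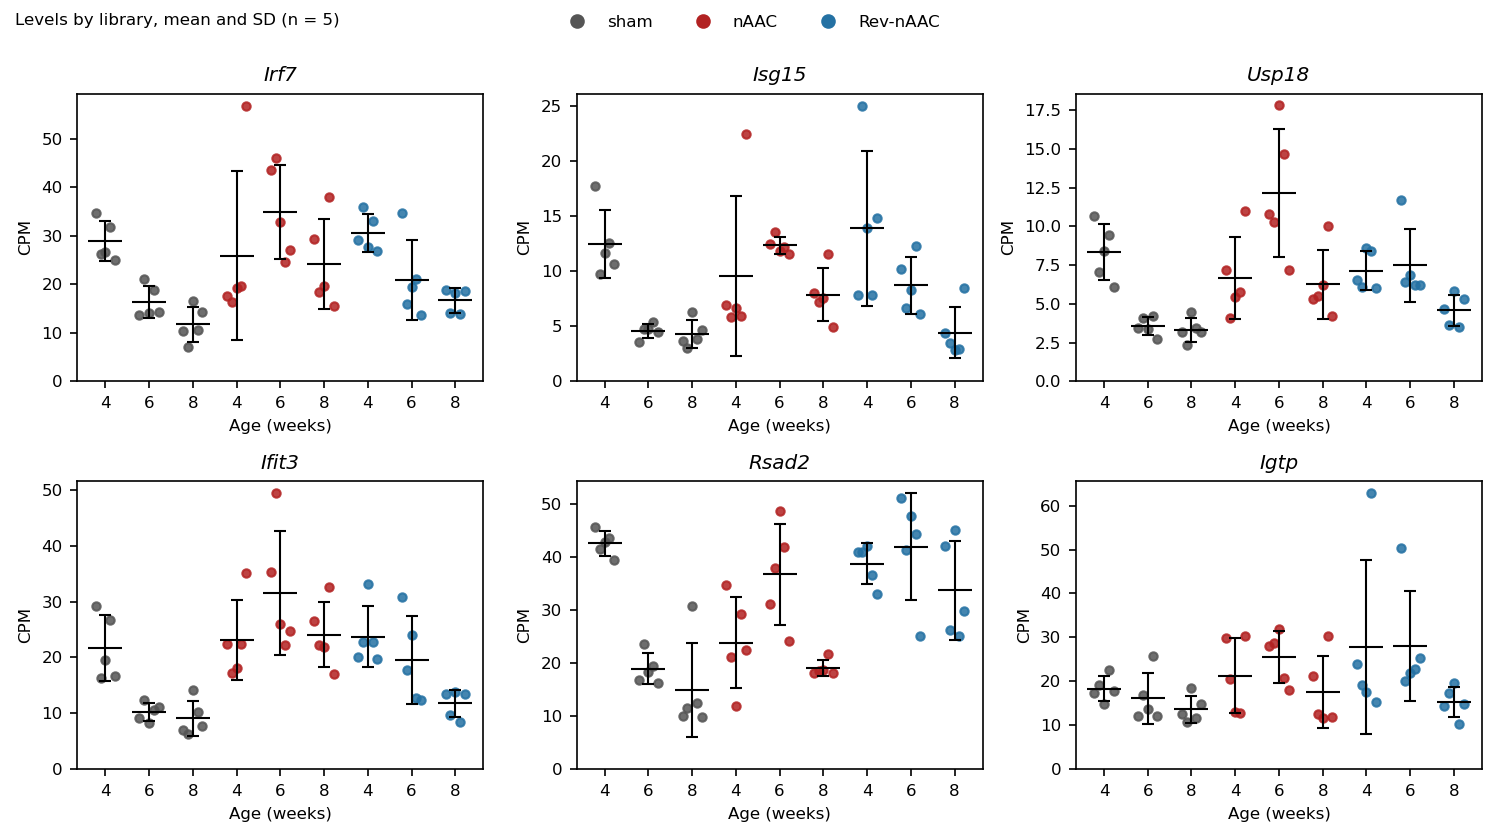
CPM of 6 members in each library (points), with group mean and SD (n = 5), for sham, nAAC and Rev-nAAC at 4, 6 and 8 weeks. Sham values of Irf7, Isg15, Usp18, Ifit3 and Rsad2 drop from 4 to 6 weeks while nAAC values at 6 weeks lie above sham, and Igtp shows overlapping groups with single high libraries, up to 62.8 CPM.

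At 4 weeks nAAC hearts did not carry more of these transcripts by the test. Of the members 6 were lower in nAAC than in sham and none was higher, where 21.2% of all genes were lower and 40.7% changed in either direction. The share of members called lower was thus below that of all genes, and the median of the members was -0.23. The 6 were Ifi44 with a log2 difference of -1.02 ± 0.28 (adjusted p = 0.0035), Rsad2 with -0.84 ± 0.24 (adjusted p = 0.0052), Cmpk2 with -0.79 ± 0.19 (adjusted p = 0.0013), Trim25 with -0.52 ± 0.09 (adjusted p = 1.7e-05), Parp14 with -0.50 ± 0.14 (adjusted p = 0.0039) and Eif2ak2 with -0.48 ± 0.12 (adjusted p = 0.0018), all by edgeR. Rsad2 was at 34.7, 21.1, 11.9, 29.2 and 22.5 CPM in nAAC, all below the sham values of 39.5 to 45.7 CPM. In 4 members the groups did not overlap, also a smaller share than the 12.6% of all genes.

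The group held 1 library far above the others. Irf7 was at 17.6, 16.3, 19.2, 19.7 and 56.8 CPM, so 4 of 5 nAAC libraries lay below all sham libraries and replicate 5 above them all, and the difference of -0.15 ± 0.27 (adjusted p = 0.68) did not pass. Isg15 was at 6.95, 5.81, 6.66, 5.94 and 22.5 CPM and Ifi27l2a at 30.5, 31, 47.5, 44.1 and 112 CPM, with the same library highest. Without nAAC 4-week replicate 5, 13 members were lower, without the doubted libraries 17 and without the libraries that stood apart 15, with 0 higher in each. Male libraries alone gave 17 lower, and with replicate 1 counted as sham 9 were lower and 1 higher. The male fit holds 2 nAAC libraries of this age and also leaves out replicates 1 and 5, both female, so it is no separate check. That high library also had a macrophage marker sum of 550 CPM, against 231 to 387 CPM in the other 4 nAAC libraries, and a monocyte and neutrophil marker sum of 36.3 CPM, against 10.3 to 20.9 CPM, and the part of these markers was not tested.

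Some endothelial and macrophage markers were lower in nAAC at 4 weeks, where 21.2% of all genes were lower and 19.5% higher. Of 10 endothelial markers Cdh5, Kdr, Tek and Tie1 were lower and Flt1 was higher, with a summed level of 1290 to 1636 CPM in nAAC and 1630 to 1845 CPM in sham. Of 14 macrophage markers 7 were lower and none higher, with a sum of 231 to 550 CPM in nAAC and 488 to 691 CPM in sham. Of 10 cardiomyocyte markers 4 were lower and 1 higher, with a sum of 39430 to 58124 CPM against 52228 to 60536 CPM. Of 9 fibroblast markers 4 were higher, with a sum of 3852 to 6472 CPM against 2745 to 3498 CPM. Among T and NK cell markers 3 of 10 tested were higher and among monocyte and neutrophil markers 3 of 8, and no B cell or red cell marker was called. Of the plasmacytoid dendritic cell markers tested, Siglech (log2 -3.06 ± 0.63, edgeR adjusted p = 0.00014) and Tcf4 (-0.38 ± 0.12, adjusted p = 0.014) were lower. Spib and Pacsin1 were not called, and the list's sum was 69 to 153 CPM against 157 to 168 CPM. The part of these markers in the lower members was not tested.

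At 8 weeks 28 of 37 members were higher in nAAC than in sham and none was lower, where 23.8% of all genes were higher and 47.2% changed either way. The median was 0.70, and in 10 members the groups did not overlap, against 18.4% of all genes. Ifit3 was at 26.6, 22.3, 21.9, 32.7 and 17 CPM in nAAC and 6.96, 6.31, 14.1, 10.3 and 7.71 CPM in sham, a log2 difference of 1.41 ± 0.26 (SE; edgeR adjusted p = 2e-05). All nAAC values were above all sham values, as they were for Ifit2, with a log2 difference of 1.39 ± 0.18 (adjusted p = 3.3e-08). Isg15 was at 8.03, 7.19, 7.6, 11.6 and 4.98 CPM in nAAC and 3.66, 3.06, 6.27, 3.88 and 4.7 CPM in sham, and its difference of 0.87 ± 0.33 (adjusted p = 0.029) came with overlapping groups. Irf7 was at 29.4, 18.5, 19.6, 37.9 and 15.5 CPM in nAAC and 10.4, 6.97, 16.5, 10.5 and 14.2 CPM in sham, a difference of 1.04 ± 0.28 (adjusted p = 0.0023). Here nAAC replicate 5 fell within the sham range. Usp18 was at 5.33, 5.48, 6.24, 10 and 4.24 CPM in nAAC and 3.2, 2.34, 4.49, 3.44 and 3.18 CPM in sham, a difference of 0.91 ± 0.24 (adjusted p = 0.0021). The highest sham value, of replicate 3, lay above the lowest nAAC value.

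The 9 members without a call at 8 weeks were Trim25, Ifi35, Eif2ak2, Oas1a, Rsad2, Cmpk2, Igtp, Irgm1 and Ifi27l2a, with log2 differences from -0.01 for Trim25 to 0.66 for Oas1a. Rsad2 was at 18.2, 18.5, 18.7, 21.7 and 18.2 CPM in nAAC and 10.1, 11.6, 30.8, 12.4 and 9.81 CPM in sham, where replicate 3 alone was above every nAAC library, and its difference was 0.35 ± 0.24 (adjusted p = 0.25). Irf1, not called at 6 weeks, was at 34, 32, 28.8, 35.8 and 28.3 CPM in nAAC and 22.1, 20.5, 29.4, 17.3 and 22.5 CPM in sham, a difference of 0.51 ± 0.13 (adjusted p = 0.00098). Iigp1 was likewise called at 8 weeks, with 0.84 ± 0.32 (adjusted p = 0.029). Without nAAC 8-week replicate 4, the highest library for 34 members, 17 members were called, and without sham 8-week replicate 3 the count was 31. With sex as a term it was 21, and in males alone 22.

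Cell type markers also differed between nAAC and sham at 8 weeks, where 23.8% of all genes were higher and 23.5% lower. The part of these markers in the higher members was not tested. All 8 B cell markers were higher, with a sum of 3.39 to 8.51 CPM in nAAC and 0.602 to 1.69 CPM in sham. Of 6 red cell markers 4 were higher, with a sum of 182 to 1273 CPM against 59.6 to 266 CPM. Of 14 macrophage markers 6 were lower and 1 higher, and their sum was 315 to 439 CPM in nAAC and 440 to 608 CPM in sham. Of 9 fibroblast markers 6 were higher, with a sum of 3584 to 5981 CPM against 2018 to 2966 CPM, and of 10 cardiomyocyte markers 6 were lower, with a sum of 36360 to 45125 CPM against 54961 to 72555 CPM. Of 10 endothelial markers 3 were higher, with a sum of 1221 to 1711 CPM against 1169 to 1390 CPM. Among T and NK cell markers 1 of 10 tested was higher, with sums of 1.58 to 4.83 CPM and 0.739 to 3.23 CPM. Of the plasmacytoid dendritic cell markers tested, Spib (log2 2.34 ± 0.69, edgeR adjusted p = 0.0046) and Tcf4 (0.30 ± 0.12, adjusted p = 0.046) were higher. Pacsin1 was lower (-1.76 ± 0.39, adjusted p = 0.00028) and Siglech was not called.

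The effect of constriction changed between 4 and 6 weeks, by a test of the difference itself. In 29 members nAAC minus sham was larger at 6 than at 4 weeks and in none smaller, where 17.3% of all genes differed, 8.96% with a larger value at 6 weeks. The median of this change was 1.16 over the members and -0.01 over all genes. Usp18 changed by 2.09 ± 0.34 (SE; edgeR adjusted p = 2.7e-05), Isg15 by 1.82 ± 0.46, Rsad2 by 1.79 ± 0.34, Ifi44 by 2.40 ± 0.40, Ifit3 by 1.53 ± 0.36 and Irf7 by 1.25 ± 0.39. The 8 without a call were Irf1, Ifi35, Zbp1, Ifitm3 and 4 GTPases (Gbp2, Igtp, Irgm1 and Iigp1). The sham and nAAC groups at both ages enter this value.

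Within nAAC hearts, a comparison added after the data were seen, 2 members were higher at 6 than at 4 weeks, Parp9 by 0.42 ± 0.10 (adjusted p = 0.029) and Eif2ak2 by 0.49 ± 0.12 (adjusted p = 0.037), where 1.22% of all genes were called. The median of the members was 0.39, against -0.82 within sham hearts, and 15 members had an unadjusted p under 0.05. The nAAC count depends on the fit and on single libraries. It was 10 without the doubted libraries, 8 without those that stood apart, 5 without nAAC 4-week replicate 1 or replicate 5, 1 without replicate 2 and 0 without replicate 3 or 4 or without nAAC 6-week replicate 2 or 3. From 6 to 8 weeks no member was called within nAAC hearts by edgeR or DESeq2, limma voom called 2 as lower, 8 had an unadjusted p under 0.05, and 0% of all genes were called. The effect at 8 weeks against that at 6 weeks had no member called either, by edgeR, DESeq2 or limma voom, with 3 at an unadjusted p under 0.05 and 0.162% of all genes called, 0.0583% with a larger effect at 8 weeks.

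**Figure D4:**
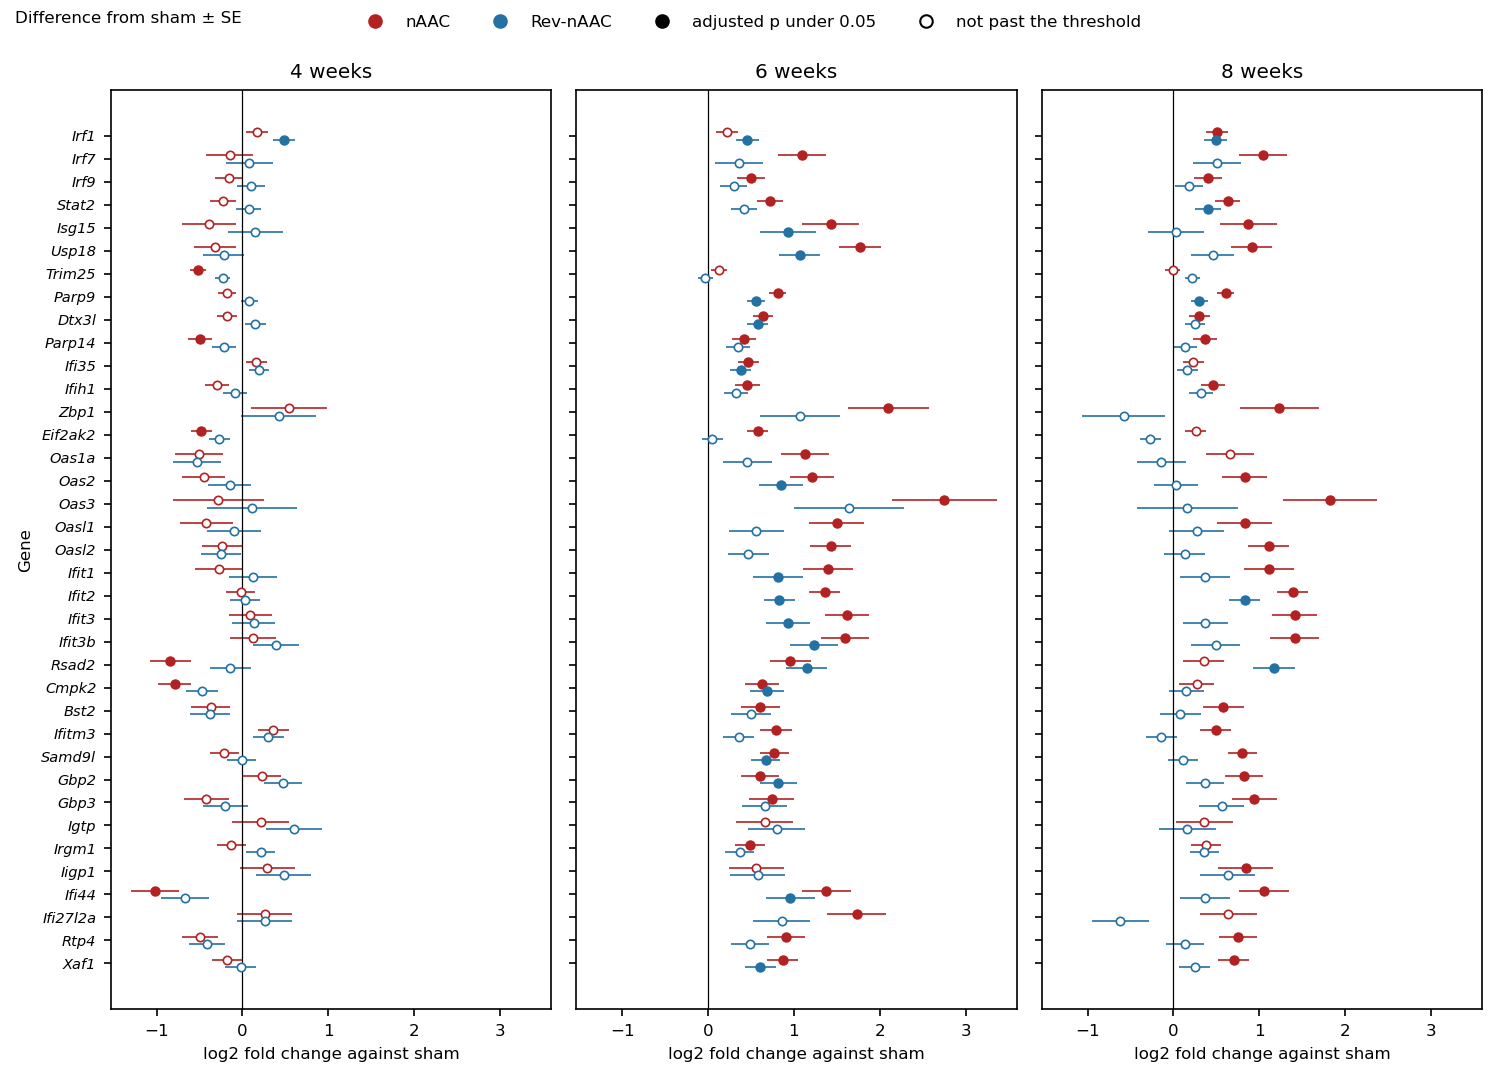
log2 fold change against sham (x axis) ± SE for each member (y axis) in nAAC (red) and Rev-nAAC (blue) at 4, 6 and 8 weeks, with filled points past the threshold. At 6 weeks 33 nAAC and 17 Rev-nAAC points are filled, at 8 weeks 28 and 5, and at 4 weeks 6 and 1.

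Hearts with the reversible constriction were compared with the same sham libraries, which both comparisons share. At 4 weeks 1 member was called, where 25.3% of all genes were. It was Irf1, at 38.2, 43.7, 34.1, 43.1 and 35.3 CPM in Rev-nAAC and 32.1, 28.3, 25, 28.5 and 25.1 CPM in sham, with a log2 difference of 0.48 ± 0.13 (SE; edgeR adjusted p = 0.0036). All Rev-nAAC values were higher. In 1 member every Rev-nAAC library lay above every sham library, against 8.62% of all genes, and in 2 every one lay below, against 11.1%. The median of the members was 0.07, and 6 had an unadjusted p under 0.05. The count was 2 without Rev-nAAC 4-week replicate 1 or 5 or sham 4-week replicate 1, and 3 without Rev-nAAC 4-week replicate 3.

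At 6 weeks 17 members were higher in Rev-nAAC than in sham and none was lower, where 8.66% of all genes were higher and 17.1% changed either way. The median was 0.58, and in 16 members the groups did not overlap, all of them higher in Rev-nAAC, against 5.54% of all genes (6.63% lay wholly lower). The 17 called members comprised 7 of 9 effectors, 5 of 7 genes of the ISG15 group, 2 of 4 other induced proteins, and 1 each of the transcription factors, sensors and GTPases (Irf1, Oas2 and Gbp2). Rsad2 was at 51.2, 41.3, 47.8, 44.3 and 25.2 CPM, against 16.3 to 23.7 CPM in sham, a difference of 1.15 ± 0.24 (SE; edgeR adjusted p = 0.0012). Usp18 was at 11.7, 6.44, 6.88, 6.22 and 6.23 CPM, against 2.73 to 4.19 CPM in sham, a difference of 1.07 ± 0.24 (adjusted p = 0.0023). In both genes all Rev-nAAC libraries were above all sham libraries. Isg15 was at 10.2, 6.62, 8.3, 12.3 and 6.14 CPM, also above all sham values, with 0.93 ± 0.33 (adjusted p = 0.047).

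Irf7 was at 34.7, 15.9, 19.4, 21.1 and 13.6 CPM in Rev-nAAC at 6 weeks, where replicate 1 was far above the sham range and the others near or within it, and the difference of 0.36 ± 0.28 (adjusted p = 0.4) did not pass. Zbp1 was at 7.35, 1.29, 2.27, 1.14 and 1.66 CPM with the same library highest, and its difference was 1.07 ± 0.47 (adjusted p = 0.11). Oasl2 was at 23.4, 14.7, 14.1, 12.4 and 10.4 CPM and had 0.47 ± 0.24 (adjusted p = 0.17), and Eif2ak2 at 21, 21.2, 22.1, 19.7 and 18.4 CPM had 0.05 ± 0.12 (adjusted p = 0.83). Without Rev-nAAC 6-week replicate 1, 7 members were called, and without the libraries that stood apart 12 were. With sex as a term the count was 15, and in males alone 14.

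At 8 weeks 5 members were higher in Rev-nAAC than in sham, where 35.6% of all genes were called and 18.3% were higher. Rsad2 was at 42.2, 26.2, 45.1, 25.2 and 29.9 CPM in Rev-nAAC, against 10.1, 11.6, 30.8, 12.4 and 9.81 CPM in sham, a difference of 1.17 ± 0.24 (SE; edgeR adjusted p = 0.00023). Sham replicate 3 was the sham value within the Rev-nAAC range. Ifit2 had 0.83 ± 0.18 (adjusted p = 0.00026), Irf1 0.49 ± 0.13 (adjusted p = 0.0022), Stat2 0.40 ± 0.15 (adjusted p = 0.042) and Parp9 0.30 ± 0.10 (adjusted p = 0.017). The median was 0.25. The count was 3 without Rev-nAAC 8-week replicate 3, 9 without Rev-nAAC 8-week replicate 4 or sham 8-week replicate 3, and 10 without the doubted libraries.

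The effect of the reversible constriction was larger at 6 than at 4 weeks in 4 members, Ifi44 by 1.63 ± 0.40 (adjusted p = 0.015), Usp18 by 1.30 ± 0.34 (adjusted p = 0.024), Rsad2 by 1.29 ± 0.34 (adjusted p = 0.026) and Cmpk2 by 1.15 ± 0.28 (adjusted p = 0.012), by edgeR, where 3.19% of all genes differed. The median of the change was 0.65, and 19 members had an unadjusted p under 0.05. The count was 2 without Rev-nAAC 6-week replicate 1 or sham 6-week replicate 5, 10 with only the compared groups in the fit and 14 by limma voom. From 6 to 8 weeks no member's effect differed by edgeR, 4 had an unadjusted p under 0.05, DESeq2 called 1 and limma voom 2 as lower, and 5.59% of all genes were called. Without Rev-nAAC 8-week replicate 5 that count was 2, and without sham 8-week replicate 2 it was 1.

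Rev-nAAC and nAAC hearts were then compared directly. At 4 weeks no member was called by edgeR, DESeq2 or limma voom, 7 had an unadjusted p under 0.05, and 2.55% of all genes were called, 1.76% as lower in Rev-nAAC. The median was 0.24, toward higher values in Rev-nAAC. The nearest to the threshold was Trim25, with 0.28 ± 0.09 (adjusted p = 0.082) and a 95% interval of 0.10 to 0.47. The count was 3 higher in Rev-nAAC without nAAC 4-week replicate 1 or without the doubted libraries, 1 without nAAC 4-week replicate 2 or replicate 5, and 7 in males alone.

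At 6 weeks 8 members were lower in Rev-nAAC than in nAAC and none was higher, where 12.1% of all genes were lower and 25.9% changed either way. The median was -0.30 over the members and 0.01 over all genes. The 8 were Eif2ak2 with a log2 difference of -0.53 ± 0.12 (adjusted p = 0.0011), Oasl2 with -0.95 ± 0.23 (adjusted p = 0.0021), Oasl1 with -0.94 ± 0.31 (adjusted p = 0.02), Ifit2 with -0.52 ± 0.17 (adjusted p = 0.021), Usp18 with -0.69 ± 0.23 (adjusted p = 0.024), Ifit3 with -0.69 ± 0.25 (adjusted p = 0.035), Irf7 with -0.74 ± 0.28 (adjusted p = 0.044) and Ifi27l2a with -0.87 ± 0.33 (adjusted p = 0.045), by edgeR. Eif2ak2 in Rev-nAAC ranged from 18.4 to 22.1 CPM, below all nAAC libraries, which ran from 23.3 to 34.2 CPM. Rsad2 had 0.19 ± 0.24 (adjusted p = 0.6), with a 95% interval of -0.29 to 0.67. In 2 members the groups did not overlap, all of them lower in Rev-nAAC, against 8.15% of all genes (8.59% lay wholly higher).

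This count rested on single libraries. It was 14 without Rev-nAAC 6-week replicate 1, whose values were the highest of its group for 32 members, and 18 without the libraries that stood apart. It was 5 and 3 without nAAC 6-week replicate 1 and replicate 2, 3 without Rev-nAAC 6-week replicate 2, and 2 without its replicate 4 or replicate 5. With sex as a term 6 members were lower.

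At 8 weeks 18 members differed between Rev-nAAC and nAAC, 16 lower and 2 higher in Rev-nAAC, where 16% of all genes were lower and 32.9% changed either way. The median was -0.50 over the members and 0.03 over all genes. Of the 8 sensors 6 were lower, of the 9 effectors 6, and of the 5 GTPases and 4 transcription factors 0. In 6 members every Rev-nAAC library lay below every nAAC library, against 9.91% of all genes, and in 1 above, against 10.3%. Zbp1 was at 0.96, 0.803, 1.24, 0.684 and 1.36 CPM in Rev-nAAC and 4.52, 2.53, 2.05, 7 and 1.61 CPM in nAAC, a log2 difference of -1.81 ± 0.47 (SE; edgeR adjusted p = 0.0029). All Rev-nAAC values were below all nAAC values. Ifit3 was at 13.4, 9.64, 13.8, 8.52 and 13.4 CPM in Rev-nAAC, against 17 to 32.7 CPM in nAAC, a difference of -1.04 ± 0.25 (adjusted p = 0.0016), also without overlap.

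Eif2ak2 was at 19.3, 16.7, 19.9, 13.1 and 20.8 CPM in Rev-nAAC, against 21.6 to 32.4 CPM in nAAC, a difference of -0.54 ± 0.12 (adjusted p = 0.00078), with every value lower. Ifi27l2a was at 20.5, 12.6, 21.1, 15.2 and 38.2 CPM, against 29.7 to 78.6 CPM in nAAC, a difference of -1.26 ± 0.33 (adjusted p = 0.0032). Rev-nAAC replicate 5 reached into the nAAC range. Ifitm3 was at 85.1, 63, 81.9, 57.9 and 97.4 CPM, against 103 to 143 CPM in nAAC, all lower, with -0.63 ± 0.18 (adjusted p = 0.0081). Oasl2, Oas1a, Ifit1 and Isg15 were lower by the same test, with -0.97 ± 0.23, -0.80 ± 0.28, -0.74 ± 0.28 and -0.83 ± 0.33. Isg15 was at 4.35, 3.48, 2.85, 2.96 and 8.49 CPM, with replicate 5 at the level of nAAC.

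Rsad2 and Trim25 went the other way. Rsad2 was at 42.2, 26.2, 45.1, 25.2 and 29.9 CPM in Rev-nAAC and 18.2, 18.5, 18.7, 21.7 and 18.2 CPM in nAAC, with every Rev-nAAC value higher and a difference of 0.82 ± 0.24 (SE; edgeR adjusted p = 0.0079). Trim25 was at 50.8, 49.5, 53.3, 60.6 and 46.8 CPM in Rev-nAAC and 46.6, 40.3, 48.9, 46.8 and 40 CPM in nAAC, with overlapping values and a difference of 0.23 ± 0.09 (adjusted p = 0.047). Irf7, not called, had -0.53 ± 0.28 (adjusted p = 0.14), with a 95% interval of -1.09 to 0.03. Without nAAC 8-week replicate 4, 9 members were called, 8 lower and 1 higher, and without the libraries that stood apart 12 were, 11 lower and 1 higher. With sex as a term 17 were lower and 1 higher. Rev-nAAC at 8 weeks holds 1 male library, replicate 5, too few to check the result within males. Relative to the sham 4-week mean, the median log2 level of the members was -1.03 to -0.49 in the 4 female libraries and -0.31 in the male library of Rev-nAAC at 8 weeks, against -0.33 to 0.34 in the 2 female and -0.61 to -0.05 in the 3 male nAAC libraries.

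Within Rev-nAAC hearts, in comparisons added after the data were seen, no member was called between 4 and 6 weeks by edgeR, DESeq2 or limma voom, 4 had an unadjusted p under 0.05, and 0.427% of all genes were called. From 6 to 8 weeks 5 members fell, Zbp1 by 1.44 ± 0.47 (adjusted p = 0.049), Gbp2 by 0.78 ± 0.22 (adjusted p = 0.023), Cmpk2 by 0.63 ± 0.20 (adjusted p = 0.038), Samd9l by 0.54 ± 0.17 (adjusted p = 0.038) and Parp9 by 0.35 ± 0.10 (adjusted p = 0.024) on the log2 scale by edgeR, where 8.4% of all genes were called. The median was -0.49, and 22 members had an unadjusted p under 0.05. DESeq2 called 13 and limma voom 14 as lower. Without Rev-nAAC 6-week replicate 1 or Rev-nAAC 8-week replicate 2 or replicate 4 the count was 0. Without Rev-nAAC 6-week replicate 3 or Rev-nAAC 8-week replicate 1 or replicate 3 it was 2, without Rev-nAAC 6-week replicate 2 it was 3, without replicate 4 or 5 of that age it was 10, and without Rev-nAAC 8-week replicate 5 it was 18.

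The 5 GTPases guard against intracellular parasites and bacteria, and in mice they are strongly induced by interferon gamma. None was called in the sham step from 4 to 6 weeks, where 9.58% of all genes were lower. In nAAC at 6 weeks 3 of 5 were higher, against 24.5% of all genes. None differed between Rev-nAAC and nAAC at 4, 6 or 8 weeks, where 2.55%, 25.9% and 32.9% of all genes were called. With 5 genes a count of 0 says little. Gbp3 in sham was at 28.1 to 38.7 CPM at 4 weeks and 13.4 to 26.7 CPM at 6 weeks. The median log2 level of the 5 GTPases in sham averaged -0.01, -0.31 and -0.63 at 4, 6 and 8 weeks, relative to the sham 4-week mean. Whether they differ from the other members was not tested. Gbp2 was at 41.2, 44.9, 36, 26.6 and 28.3 CPM in nAAC and 19.4, 26.7, 21, 26.4 and 22.8 CPM in sham at 6 weeks, a difference of 0.61 ± 0.22 (SE; edgeR adjusted p = 0.023). The lowest nAAC value lay within the top of the sham range. Gbp3 and Irgm1 had 0.74 ± 0.26 and 0.49 ± 0.17.

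Igtp was at 28.1, 28.7, 31.9, 20.7 and 18 CPM in nAAC and 12.1, 16.9, 13.6, 25.8 and 12.2 CPM in sham at 6 weeks, where sham replicate 4 was within the nAAC range, and its difference of 0.66 ± 0.33 (adjusted p = 0.094) did not pass. The gene of Igtp shares 162 bases with its neighbour Irgm2 on the same strand. Iigp1 was at 83.7, 86.2, 76.2, 45.1 and 56.9 CPM in nAAC and 40.2, 51.9, 35.2, 67.9 and 41 CPM in sham, with 0.56 ± 0.32 (adjusted p = 0.14) and overlapping groups. In Rev-nAAC at 4 weeks Igtp was at 23.9, 19.2, 17.6, 62.8 and 15.3 CPM and Iigp1 at 57.3, 37.4, 52.5, 138 and 42.8 CPM, both highest in replicate 4. At 6 weeks Igtp was at 50.3, 20, 21.9, 22.8 and 25.3 CPM and Iigp1 at 109, 69.1, 57.6, 65.3 and 53.2 CPM in Rev-nAAC, both highest in replicate 1.

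**Figure D5:**
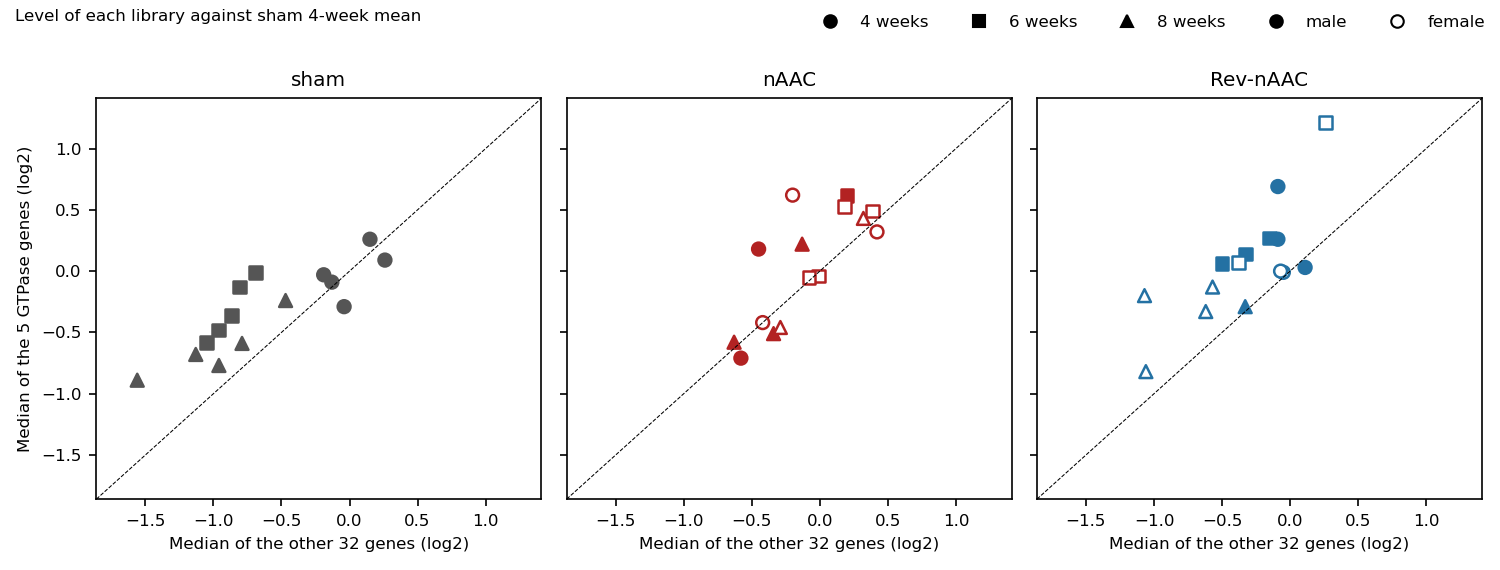
Median log2 level of the 5 GTPases (y axis) against that of the other members (x axis) in each library, relative to the sham 4-week mean, by operation, age (shape) and sex read from the data (filled male, open female), with a dashed line of equality. Rev-nAAC 6-week replicate 1 lies at 1.21 and Rev-nAAC 4-week replicate 4 at 0.69 on the GTPase axis, and sham libraries at 6 weeks lie above the line, with the other members lower than the GTPases.

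The ligands themselves were near or below detection. Of 21 interferon genes listed, 8 had a row and none had enough counts to be tested. Their summed level was at most 0.0873 CPM in any library. The counts of Ifng, which encodes interferon gamma, summed over the 5 libraries of a group to 0 in sham and 5 in nAAC at 6 weeks, and to 9 in Rev-nAAC at 6 weeks. Each of the 5 Rev-nAAC libraries thus had a count and none of the 5 sham libraries did, and these few counts were not tested.

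Genes around the pathway moved in both directions in nAAC against sham at 6 weeks. Of 10 receptor and signalling genes 4 were higher and 3 lower, where 24.5% of all genes were higher and 23.8% lower. Ifngr1, a chain of the interferon gamma receptor, was higher by 0.77 ± 0.10 (adjusted p = 4.1e-08) on the log2 scale, while its partner Ifngr2 had -0.67 ± 0.10 (adjusted p = 3.4e-07). Il10rb, shared by the receptors of interferon lambda and interleukin 10, had -0.76 ± 0.08 (adjusted p = 9.5e-10), and Jak1, a kinase of all these receptors, -0.36 ± 0.07 (adjusted p = 0.00011), all by edgeR. Ifngr1 was at 105 ± 12 CPM (SD, n = 5) in nAAC and 61.6 ± 3.32 CPM in sham.

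A list of 19 genes upstream of interferon holds sensors of nucleic acid, their adaptors, kinases and factors, and Tlr4, the receptor for bacterial endotoxin. Of these 8 were higher and 1 lower, against 24.5% and 23.8% of all genes. Rigi (RIG-I) had 0.63 ± 0.11 (adjusted p = 6.3e-06), Dhx58 (LGP2) 1.32 ± 0.24 (adjusted p = 1.7e-05) and Tlr4 0.95 ± 0.17 (adjusted p = 1.2e-05) by edgeR. Mavs, the mitochondrial adaptor of RIG-I and MDA5, had -0.71 ± 0.11 (adjusted p = 1.1e-06). Of 16 brakes on interferon signalling tested, 6 were higher and 1 lower, against the same shares of all genes. The higher ones include the phosphatases Ptpn2 with 0.36 ± 0.08 and Ptpn1 with 0.36 ± 0.08, Nlrc5 with 1.25 ± 0.36 and Rnaseh2b with 0.41 ± 0.12.

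A list of 52 other interferon-induced genes, of which 49 were tested, had 40 higher and none lower at 6 weeks, with a median of 0.78, against 24.5% and 23.8% of all genes. They include B2m, the light chain of MHC class I, with 1.40 ± 0.20 (adjusted p = 2.7e-07), Pml with 0.71 ± 0.10, Parp10 with 0.75 ± 0.12 and Sp110 with 1.17 ± 0.19, by edgeR. B2m was at 527 ± 126 CPM (SD, n = 5) in nAAC and 199 ± 44.8 CPM in sham. Cxcl10, a chemokine for T cells, was picked after its values were seen and had 3.33 ± 0.57 (adjusted p = 6e-06). The whole list was chosen with earlier results of these data known, so its counts are no independent check of the members.

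The shares of all genes called higher and lower stand beside the counts of this list in the other comparisons. In nAAC against sham it had 10 higher and 12 lower at 4 weeks, against 19.5% and 21.2% of all genes. At 8 weeks it had 33 higher and 1 lower, against 23.8% and 23.5% of all genes. In Rev-nAAC against sham it had 10 higher and 2 lower at 4 weeks, against 12.2% and 13.1% of all genes. It had 28 higher and none lower at 6 weeks, against 8.66% and 8.39%, and 14 higher and none lower at 8 weeks, against 18.3% and 17.3%. In Rev-nAAC against nAAC none was called at 4 weeks, against 2.55% of all genes. There 8 were lower at 6 weeks, against 12.1%, and 18 were lower and 1 higher at 8 weeks, against 16% and 16.9%. In sham hearts 22 were lower at 6 than at 4 weeks and none was higher, against 9.58% and 7.32% of all genes.

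Markers of the cell types that a ventricle can hold were read beside these results, and their part in them was not tested. In nAAC against sham at 6 weeks 24.5% of all genes were higher and 23.8% lower. Of 14 macrophage markers 1 was higher and 5 were lower in nAAC than in sham at 6 weeks, with a summed level of 280 to 392 CPM in nAAC and 304 to 402 CPM in sham. Of 8 B cell markers 7 were higher in nAAC at 6 weeks, where their sum was 4.71 to 20.1 CPM against 1.64 to 2.59 CPM in sham. Of 10 T and NK cell markers tested 6 were higher, with a sum of 2.68 to 6.15 CPM against 1.07 to 2.61 CPM. Of 8 monocyte and neutrophil markers 2 were higher, with a sum of 12.9 to 22 CPM against 4.38 to 10.8 CPM. In Rev-nAAC against sham at 6 weeks 7 B cell markers and 7 T and NK cell markers were higher, against 8.66% of all genes. Their sums were 3.78 to 12.4 CPM and 3.7 to 11.4 CPM in Rev-nAAC. No marker of these lists was at 0 over a group.

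Of 10 endothelial markers 3 were higher and none lower in nAAC at 6 weeks, against 24.5% and 23.8% of all genes. Their sum was 1254 to 1697 CPM against 1330 to 1402 CPM. Of 9 fibroblast markers 8 were higher, with a sum of 3868 to 5607 CPM against 2120 to 2819 CPM, and of 10 cardiomyocyte markers 8 were lower, with a sum of 39295 to 45801 CPM against 65152 to 67475 CPM. The 6 red cell markers were all higher, with a sum of 257 to 3302 CPM against 97.9 to 524 CPM. Of 4 markers tested for plasmacytoid dendritic cells, the main makers of type I interferon, 1 was higher, with a sum of 126 to 165 CPM against 120 to 142 CPM and 1 of 6 listed markers at 0 in sham. In Rev-nAAC against sham at 8 weeks 12 of 14 macrophage markers were lower and 1 higher, against 17.3% and 18.3% of all genes. Their sums were 189 to 514 CPM in Rev-nAAC and 440 to 608 CPM in sham. In Rev-nAAC against nAAC at 8 weeks, 1 macrophage marker was higher and 3 were lower, against 16.9% and 16% of all genes. The sums were 189 to 514 CPM in Rev-nAAC and 315 to 439 CPM in nAAC.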

How the data were processed

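The deposited values are raw counts of reads per gene, made by the authors from RNA-seq of mouse left ventricle. The submitters' processing notes name fastp 0.20.1, HISAT2 2.1.0, HTSeq 0.11.2 and the builds GRCm38 and mm10. The gene annotation and strand setting of the counting are not given in the sources used here.

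Genes passing edgeR's filterByExpr (minimum count 10, minimum total 15) were fitted together over all 45 libraries and 9 groups, with TMM scaling, the robust quasi-likelihood test and 36 residual degrees of freedom (edgeR 4.0.16, R 4.3.3). P-values were adjusted by Benjamini-Hochberg over 15444 genes, with a threshold of 0.05. Standard errors were derived from the F statistic. CPM values were computed from the counts, so precision follows library totals of 31586082 to 35965976 counts. Of 19 comparisons 15 were planned and 4, between ages within nAAC or Rev-nAAC, were added after the data were seen. Alternatives were DESeq2 1.42.0, limma 3.58.1 (voom with quality weights), RLE scaling, no filter, a stricter threshold, fits of the compared groups alone, sex as a term, male libraries alone, a replicate block, libraries left out, and the library of doubtful label moved to the sham group. The fit was tested on simulated data.

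The members and all gene lists were chosen with earlier results of these data known. Genes named in full are a panel of 21 chosen by role, any member called against the direction of most or not called where most were, and up to 4 genes of each list with the smallest p. Group membership came from sample titles. Same-numbered libraries deviated together with correlations of -0.173 to 0.257, so the numbers were not taken as pairs. No pair of libraries held identical values. Overlaps of genes and exon lengths came from GENCODE M21, promoters from RefSeq on GRCm38.p6. Figures used matplotlib 3.10.9. Mx1 and Mx2 were not analysed here.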

Additional observations from a re-analysis of the deposited data

Results flagged for a closer look

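Of 189 sets of 5 libraries (21 genes in 9 groups), 28 held a library set apart from the other 4 by more than 0.71 of the group's range. Chance would give about 1 in 20 for independent sets of normally distributed values. The 189 sets share the same 45 libraries and use CPM without a log scale, so an excess over chance cannot be read from this. Library nAAC 4-week replicate 5 was highest in 7 of the 28 sets. It had Irf7 at 56.8 CPM, Isg15 at 22.5, Zbp1 at 9.23, Oas1a at 13.1, Oasl2 at 32.4, Bst2 at 65.5 and Ifi27l2a at 112 CPM, where the highest of the other 4 libraries was 19.7, 6.95, 3.16, 4.57, 18.9, 26.6 and 47.5 CPM in the same order.

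Library Rev-nAAC 6-week replicate 1 was highest in 10 sets. It had Irf9 at 40.1, Stat2 at 38.2, Irf1 at 54.8, Usp18 at 11.7 and Zbp1 at 7.35 CPM, Ifitm3 at 139, Gbp2 at 67.6, Igtp at 50.3, Iigp1 at 109 and Ifi27l2a at 55.6 CPM. Its T and NK cell marker sum was 11.4 CPM, the highest of its group, and the part of these markers was not tested. Library Rev-nAAC 4-week replicate 4 was highest for Igtp at 62.8, Iigp1 at 138 and Xaf1 at 20.8 CPM.

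The remaining 8 cases concerned single genes. High values were Isg15 at 8.49 CPM in Rev-nAAC 8-week replicate 5, Ifih1 at 18.6 CPM in nAAC 4-week replicate 1, Ifit3 at 33.1 CPM in Rev-nAAC 4-week replicate 3, Rsad2 at 30.8 CPM in sham 8-week replicate 3 and 21.7 CPM in nAAC 8-week replicate 4, and Xaf1 at 14.6 CPM in sham 6-week replicate 5. Low values were Ifih1 at 15.4 CPM in nAAC 6-week replicate 5 and Eif2ak2 at 19.9 CPM in Rev-nAAC 4-week replicate 2.

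The effect of constriction differed between ages in 29 members, by the test of the difference itself (edgeR adjusted p from 4.9e-06 to 0.035). On the log2 scale nAAC minus sham was larger at 6 than at 4 weeks by 3.03 for Oas3, 2.40 for Ifi44, 2.09 for Usp18, 1.91 for Oasl1, 1.82 for Isg15, 1.79 for Rsad2, 1.67 for Ifit1 and Oasl2, 1.66 for Oas2 and 1.64 for Oas1a. It was larger by 1.53 for Ifit3, 1.48 for Ifit3b, 1.47 for Ifi27l2a, 1.41 for Cmpk2 and Rtp4, 1.38 for Ifit2, 1.25 for Irf7, 1.16 for Gbp3, 1.05 for Eif2ak2 and 1.04 for Xaf1. The remaining values were 0.99 for Parp9 and Samd9l, 0.98 for Bst2, 0.95 for Stat2, 0.92 for Parp14, 0.83 for Dtx3l, 0.75 for Ifih1, 0.66 for Irf9 and 0.65 for Trim25. For Rev-nAAC minus sham the same step was 1.63 for Ifi44, 1.30 for Usp18, 1.29 for Rsad2 and 1.15 for Cmpk2.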

How the results depend on the processing

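Counts of members called are given here as main value and alternative. For nAAC against sham, the counts at 6 and 8 weeks, and those of the change of effect between ages and of the sham step from 4 to 6 weeks, stayed within 1.5 times under every alternative that kept all libraries or dropped named sets. With single libraries left out they ran from 30 to 34 at 6 weeks, 17 to 31 at 8 weeks, 26 to 33 for the change of effect from 4 to 6 weeks, 0 to 0 from 6 to 8 weeks, and 23 to 28 for the sham step, and from 0 to 2 for the sham step from 6 to 8 weeks. For nAAC against sham at 4 weeks (6) the count was 17 without doubted libraries, 15 without those standing apart, 14 by limma, 17 in males, 10 with replicate 1 as sham, and 6 to 13 with libraries left out. For Rev-nAAC against sham it was, at 4 weeks (1), 6 by limma, 3 in males, 6 with the compared groups alone, 2 with the replicate block, 2 with sex as a term and 1 to 3 with libraries left out. At 6 weeks (17) it was 8 at p under 0.01 and 7 to 19 with libraries left out, and at 8 weeks (5) 3 at p under 0.01, 10 without doubted libraries, 12 by limma and 3 to 9. For Rev-nAAC against nAAC it was, at 4 weeks (0), 3 without doubted libraries, 1 without those standing apart, 7 in males, 3 with replicate 1 as sham, 1 with sex and 0 to 3. At 6 weeks (8) it was 2 at p under 0.01, 18 without those standing apart, 14 by limma, 5 with no filter and 2 to 14, and at 8 weeks (18) 9 at p under 0.01, 0 in males and 9 to 22. The change of the Rev-nAAC effect from 4 to 6 weeks (4) was 0 at p under 0.01, 14 by limma, 2 with no filter, 10 with the compared groups alone and 2 to 6, and from 6 to 8 weeks (0) 1 by DESeq2, 2 by limma and 0 to 2. Sham from 6 to 8 weeks (0) was 5 by limma, 1 in males and 1 with the compared groups alone. Within nAAC from 4 to 6 weeks (2) it was 0 at p under 0.01, 10 without doubted libraries, 8 without those standing apart, 13 by limma, 5 with replicate 1 as sham, 0 in males, with no filter and with the compared groups alone, and 0 to 5. From 6 to 8 weeks (0) it was 1 without those standing apart, 2 by limma and 0 to 0. Within Rev-nAAC from 4 to 6 weeks (0) it was 3 without those standing apart and 0 to 0, and from 6 to 8 weeks (5) 0 at p under 0.01, 13 by DESeq2, 1 without doubted libraries, 1 without those standing apart, 15 by limma, 0 in males, 2 with no filter, 0 with the compared groups alone and 0 to 18. In males alone Ifit1 (0.08), Isg15 (0.33), Oas3 (0.36) and Rtp4 (0.06) changed sign in Rev-nAAC against nAAC at 8 weeks, as did Cmpk2 (0.04) and Gbp2 (0.08) in Rev-nAAC from 6 to 8 weeks, where Rev-nAAC at 8 weeks has 1 male library. That library, and the 1 male nAAC library at 6 weeks, are assumed to vary like the other groups, so counts in males that use them are no check of a result. The cause of these moves was not tested. The replicate numbers share no stated origin, and the replicate block gave 33 members for nAAC against sham at 6 weeks, 28 at 8 weeks and 26 for the sham step. Depth limits Oas3 and the interferon ligands.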
